A study of Mus musculus with 4 samples.

Results

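7 genes of blood clotting, clot breakdown and vascular tone were followed in a mouse macrophage line after knockdown of Mettl3. They are Plau and Plaur (urokinase and its receptor), F3 (tissue factor), F10 (coagulation factor X), Thbd (thrombomodulin), Procr (the endothelial protein C receptor) and Edn1 (the precursor of endothelin-1). The members were the rows of the deposited gene table with one of these symbols, and all 7 of 7 symbols were found among 14435 genes. The cells were RAW264.7, an established macrophage line that was exposed to LPS of E. coli for 12 hours. The shMettl3 group had 2 libraries from cells given an shRNA against METTL3, which encodes the enzyme that writes N6-methyladenosine on RNA. The Control group had 2 libraries from cells given a nonspecific shRNA. Both groups received LPS, so the values compare knockdown with control in stimulated cells, and unstimulated cells were not analysed here. No label tells whether libraries of a group are separate cultures, and each p-value therefore reflects the spread among these 4 libraries, which may be technical.

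Urokinase is a serine protease that macrophages secrete and hold at their surface on its receptor, where it turns plasminogen into plasmin, the protease that dissolves fibrin. Tissue factor is the membrane protein that starts clotting: with factor VII it activates factor X, which then makes thrombin. Thrombomodulin binds thrombin and redirects it to protein C, and the protein C receptor presents protein C to that complex, which limits clotting. Endothelin-1 is a peptide that constricts vessels, and activated macrophages are among its sources. LPS is known to induce tissue factor and urokinase receptor in monocytes and macrophages.

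The libraries held between 16342313 and 17193639 estimated counts and between 12819 and 13333 genes with at least 1 count. Mettl3 had 11.5 and 11.2 CPM (counts scaled to library size) in shMettl3 libraries, against 30.9 and 29.9 CPM in Control libraries. The treatment label of shMettl3 replicate 2 names METTL4, while its title names Mettl3, and Mettl4, which was not called, had 24.4 and 24.8 CPM in shMettl3 libraries, against 26.4 and 24.3 CPM in Control libraries. 11035 genes were tested with edgeR's quasi-likelihood method, and 43.7% of them had a Benjamini-Hochberg adjusted p below 0.05, the threshold for a call. The share was 21.4% for genes higher in shMettl3 and 22.3% for genes lower in shMettl3, so calls were frequent in this comparison. Among the called genes 48.9% were higher in shMettl3 with TMM scaling, against 64.1% with library size alone and 70.0% with the authors' TPM. 6 of 8 tested macrophage markers were lower in shMettl3, among them Adgre1 (the surface protein F4/80) with a log2 fold change of -1.79. Fcgr1, an Fc receptor, lay the other way at 0.83, and Spi1, a myeloid transcription factor, was at -0.06, neither of them called, while 1 marker was called higher in limma-voom, in edgeR without robust fitting, with either Control library left out and with the replicate block. The summed level of the markers was 8367 to 8423 CPM in shMettl3 libraries, against 13145 to 13482 CPM in Control libraries. The part of this shift in the values below was not tested. A smaller number of cells that express a gene and less RNA of it per cell cannot be told apart in these bulk libraries.

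4 of the 7 genes fell and 1 rose in the knockdown cells, beside 22.3% and 21.4% of all tested genes. Plau, Plaur, F10 and Thbd fell, Edn1 rose, and F3 and Procr were not called. All 7 passed the filter on low counts, and none was absent from a library, but Thbd in shMettl3 cells and F3 in both groups lay near the lower end of what was counted. The 7 genes had a median log2 fold change, shMettl3 over Control, of -0.74, beside 0.01 over all tested genes, and a median size of change of 1.10, beside 0.26. In 6 of the 7 genes the CPM values of the groups did not overlap, where 73.4% of all tested genes did not overlap either. 4 of the 7, namely Plau, F10, Thbd and Edn1, were called with a log2 fold change of at least 1 in size, which holds for 8.94% of tested genes. The 7 genes were chosen with earlier results of these data known, so these comparisons describe the genes and are no test of the set.

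**Figure D1:**
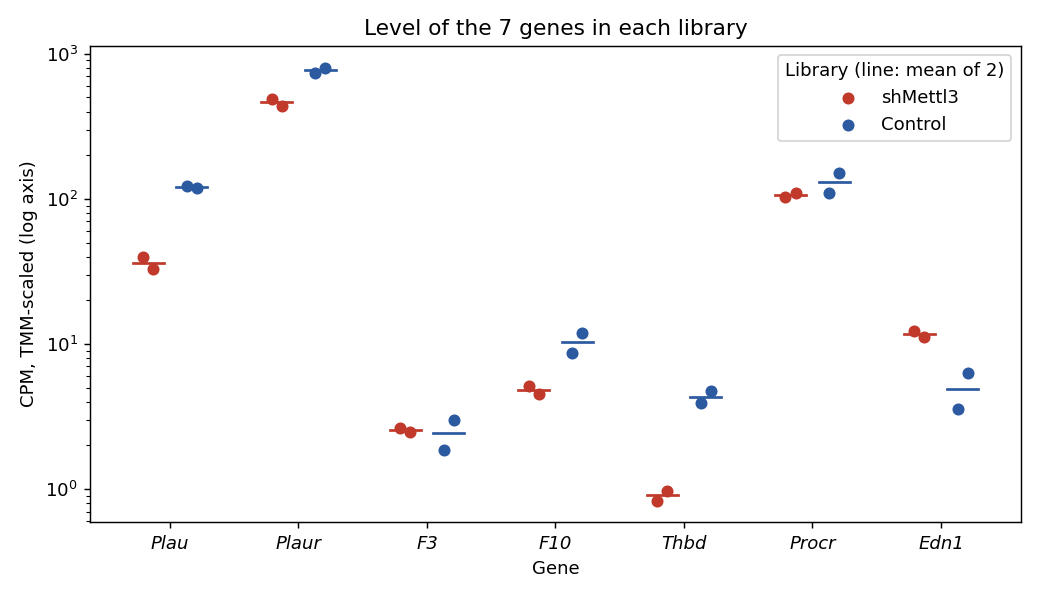
CPM of the 7 genes in each library on a log axis, with shMettl3 libraries in red left of Control libraries in blue; points are libraries and lines the means of 2. Plau, Plaur, F10 and Thbd lie lower and Edn1 higher in shMettl3 libraries, while the F3 points of the groups overlap.

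Urokinase fell more than its receptor. Plau (Entrez gene 18792) had 39.4 and 32.7 CPM in shMettl3 libraries, against 122 and 119.5 CPM in Control libraries. The groups lay far apart, and the ratio of the higher to the lower library within a group was 1.21 in shMettl3 and 1.02 in Control. The log2 fold change was -1.75 (SE 0.09, adjusted p = 1.89e-07 in edgeR), a level 3.35-fold lower in shMettl3. By size of change Plau stood above 96.5% of the tested genes or level with them.

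Plaur (Entrez gene 18793), the receptor that anchors urokinase to the cell surface, was the most abundant of the 7 on the per-length scale of TPM (each transcript's share of all transcripts). It had 596 and 535 TPM in shMettl3 libraries, against 834 and 879 TPM in Control libraries. In CPM these were 489 and 436 in shMettl3 libraries, against 739 and 803 in Control libraries. Both knockdown libraries were lower than both controls. The log2 fold change was -0.74 (SE 0.08, adjusted p = 3.29e-05 in edgeR), or 1.67-fold lower. Its 95% interval of -0.91 to -0.56 did not overlap that of Plau, -1.95 to -1.55. Plaur still ranked 245 and 275 by TPM among 14435 genes in shMettl3 libraries, against ranks 191 and 185 in Control libraries.

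The ratio of receptor to protease transcripts was higher in both knockdown libraries. Plaur exceeded Plau 19.8-fold and 21.3-fold on the TPM scale in shMettl3 libraries, against 9.70-fold and 10.8-fold in Control libraries. The ratios of the groups did not overlap. The two-sided exact permutation test over the 4 libraries gave p = 0.333, the smallest value that 2 libraries against 2 allow.

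The other genes of plasminogen activation also fell in most cases. The list of this pathway has 15 genes, of which 8 were tested, 7 fell, 0 rose and Plgrkt was not called; 22.3% of all tested genes fell. The list's median log2 fold change was -0.77, beside 0.01 over all tested genes. This median and the count of 7 include Plau and Plaur. The other genes that fell were Serpinb2, Lrp1, S100a10, Anxa2 and Eno1. Serpinb2, a serpin that inhibits urokinase, had 5.47 and 5.86 CPM in shMettl3 libraries, against 22.6 and 22.3 CPM in Control libraries. Both knockdown libraries were far below both controls. Serpinb2 changed by -1.98 on the log2 scale (SE 0.12), with a 95% interval of -2.25 to -1.72 that overlapped that of Plau.

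Lrp1, an endocytic receptor that clears proteases and their complexes from the cell surface, had 452 and 486 CPM in shMettl3 libraries, against 995 and 1055 CPM in Control libraries (log2 fold change -1.13, SE 0.07). S100a10 and Anxa2 encode the chains of a surface complex that binds plasminogen and tissue plasminogen activator. Their log2 fold changes were -0.81 (SE 0.08) and -0.52 (SE 0.07). Eno1, a glycolytic enzyme that also binds plasminogen at the cell surface, fell by 0.48, from estimated counts that were not whole. Plgrkt, a membrane receptor of plasminogen, was not called, at a log2 fold change of 0.13 (SE 0.08, adjusted p = 0.215 in edgeR), and with library size alone as scaling it was called (0.22). Plat, the gene of tissue plasminogen activator, was below the filter with 2 and 3 counts in shMettl3 libraries, against 1 and 2 counts in Control libraries.

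**Figure D2:**
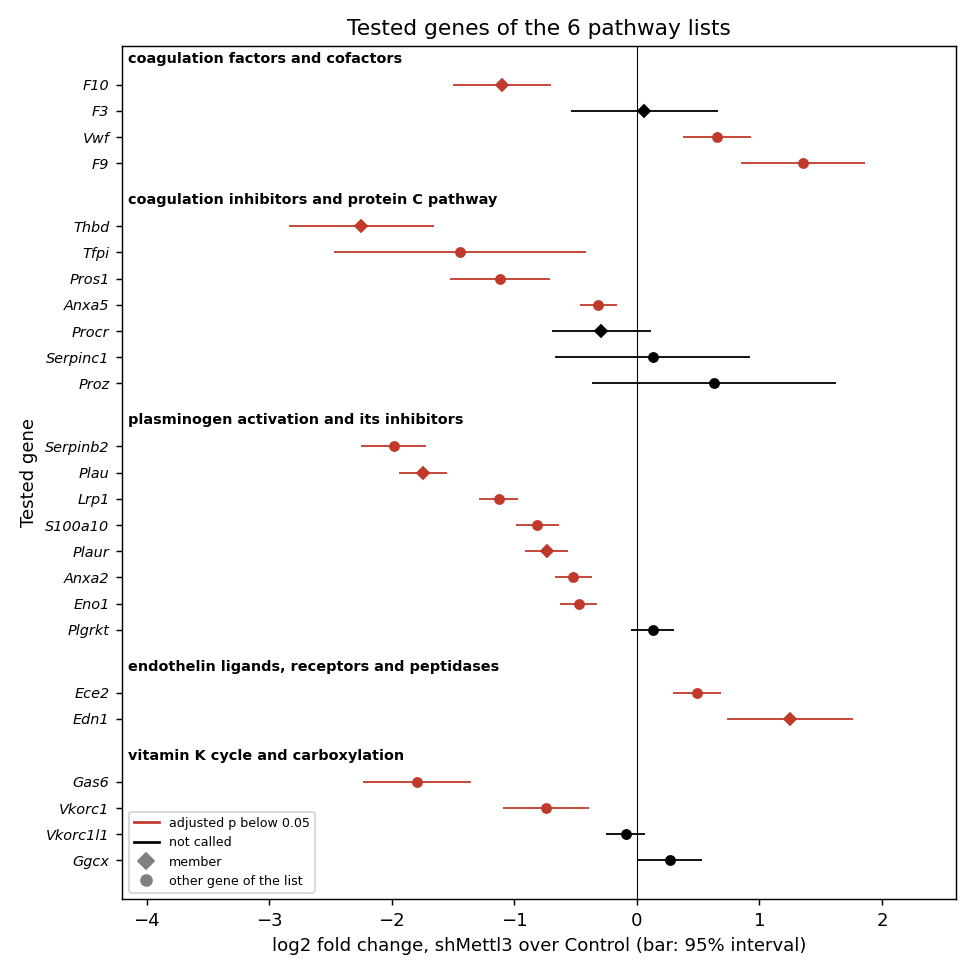
Log2 fold change, shMettl3 over Control, of the tested genes of the pathway lists, with 95% intervals from edgeR; diamonds are the 7 genes of interest and red marks an adjusted p below 0.05. 7 of 8 genes of plasminogen activation lie below 0 and were called, while F9, Vwf, Ece2 and Edn1 lie above 0 and were called.

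In the clotting cascade the factor X gene fell and the tissue factor gene was not called. F10 (Entrez gene 14058), the protease that makes thrombin, had 86 and 79 counts in shMettl3 libraries, against 145 and 199 counts in Control libraries. That is 5.12 and 4.54 CPM in shMettl3 libraries, against 8.73 and 12.0 CPM in Control libraries. The groups did not overlap, although the Control libraries differed 1.37-fold between themselves. The log2 fold change was -1.10 (SE 0.18, adjusted p = 6.72e-04 in edgeR), or 2.14-fold lower.

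F3 (Entrez gene 14066), the gene of tissue factor, had 44 and 43 counts in shMettl3 libraries, against 31 and 50 counts in Control libraries. In CPM these were 2.62 and 2.47 in shMettl3 libraries, against 1.87 and 3.01 in Control libraries. The knockdown values lay between the control values. The log2 fold change was 0.06 (SE 0.27, 95% interval -0.54 to 0.66, adjusted p = 0.875 in edgeR). The interval runs from 0.688-fold to 1.58-fold, so changes of that size in either direction remain compatible with these libraries. Counts were low, and the Control libraries differed 1.61-fold between themselves. The sign depended on 1 library: leaving out Control replicate 1 gave -0.26 and leaving out Control replicate 2 gave 0.44, neither of them called.

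Among 16 clotting factors and cofactors, F3 and F10 included, 4 were tested, of which 2 rose and 1, F10, fell, and the shares over all tested genes were 21.4% and 22.3%. F9, coagulation factor IX, which activates factor X, had 4.16 and 4.48 CPM in shMettl3 libraries, against 1.81 and 1.57 CPM in Control libraries (log2 fold change 1.36, SE 0.23). Vwf, von Willebrand factor, the carrier of factor VIII and a ligand of platelets, had 18.1 and 21.1 CPM in shMettl3 libraries, against 13.5 and 11.4 CPM in Control libraries (log2 fold change 0.65, SE 0.13). F7, the partner of tissue factor, was below the filter with 2 and 4 counts in shMettl3 libraries, against 6 and 4 counts in Control libraries. The prothrombin gene F2 had 1 and 0 counts in shMettl3 libraries, against 0 and 0 counts in Control libraries.

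Factor X and protein S are carboxylated with the help of the vitamin K cycle. Of 4 genes listed for that cycle and its products, all tested, 2 fell and 0 rose, beside 22.3% and 21.4% of all tested genes. Vkorc1, which regenerates reduced vitamin K, had 12.97 and 9.02 CPM in shMettl3 libraries, against 18.4 and 18.3 CPM in Control libraries (log2 fold change -0.74, SE 0.16). Gas6, a carboxylated ligand of the Axl and Mertk receptors that is related to protein S, fell by 1.79 (SE 0.19). Ggcx, the carboxylase, had a log2 fold change of 0.27 (SE 0.12, adjusted p = 0.0871 in edgeR), and it was called with library size alone (0.36), with FPKM (0.32) and with TPM (0.39). Vkorc1l1, a relative of Vkorc1, had -0.09 (SE 0.07), which turned to 0.05 with TPM.

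The receptors of the anticoagulant protein C pathway did not move alike. Thbd (Entrez gene 21824), the thrombin receptor thrombomodulin, had 14 and 17 counts in shMettl3 libraries, against 65 and 79 counts in Control libraries. These counts are 0.833 and 0.977 CPM in shMettl3 libraries, against 3.91 and 4.76 CPM in Control libraries. The groups were far apart, at low levels. With a log2 fold change of -2.25 (SE 0.27, 95% interval -2.84 to -1.66, adjusted p = 6.49e-05 in edgeR) the level was 4.75-fold lower. This was the largest log2 fold change of the 7 in the edgeR fit, with an interval that overlapped that of Plau. It stood above or level with 98.2% of tested genes by size of change. On the log2(TPM + 1) scale the change was -0.99 and on the log2(FPKM + 1) scale -0.79, where a pseudocount of 1 is close in size to the levels themselves, and both were called. On these scales Plau (-1.57 and -1.61) and Edn1 (1.22 and 1.08) changed by more than Thbd.

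Procr (Entrez gene 19124), the protein C receptor, was much more abundant than Thbd, with 128 and 137 TPM in shMettl3 libraries, against 127 and 168 TPM in Control libraries. In CPM the values were 103.3 and 109.2 in shMettl3 libraries, against 109.6 and 150.04 in Control libraries. On the TPM scale the groups overlapped, and on the CPM scale the higher knockdown library and the lower control library were nearly level. The log2 fold change was -0.29 (SE 0.16, 95% interval -0.69 to 0.12, adjusted p = 0.203 in edgeR). The 95% intervals of Thbd and Procr did not overlap. The Procr call depended on the fit. With the replicate number as a block it was called lower (-0.27, adjusted p = 0.0292 in edgeR), although the labels do not say that the numbers pair libraries. Without Control replicate 1 it was -0.51 and called (adjusted p = 1.06e-05 in edgeR), without Control replicate 2 it was -0.05 and not called, and the adjusted p over its alternatives ran from 1.06e-05 to 0.603.

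The transcripts of the protein C receptor exceeded those of thrombomodulin 327-fold and 298-fold on the TPM scale in shMettl3 libraries, against 75.4-fold and 84.8-fold in Control libraries. The two-sided exact permutation test over the 4 libraries gave p = 0.333, again the smallest that this design allows. Because Thbd had few counts, the ratio carries the counting error of Thbd.

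Of 12 genes listed as clotting inhibitors or protein C pathway members 7 were tested, 4 fell and 0 rose, where 22.3% of all tested genes fell and 21.4% rose. Their median log2 fold change was -0.31, beside 0.01 over all tested genes. Thbd and Procr are in this list. Pros1, the gene of protein S, a cofactor of activated protein C, had 3.69 and 3.33 CPM in shMettl3 libraries, against 8.43 and 6.81 CPM in Control libraries (log2 fold change -1.12, SE 0.19). Tfpi, the inhibitor of the tissue factor pathway, had 8 and 7 counts in shMettl3 libraries, against 13 and 27 counts in Control libraries (log2 fold change -1.44, SE 0.47). Its call was lost in DESeq2 (-1.46), in limma-voom (-1.31), without shMettl3 replicate 1 (-1.56), without shMettl3 replicate 2 (-1.33) and without Control replicate 2 (-0.83). Anxa5, a protein that binds anionic phospholipid and shields it from clotting factors, fell by 0.31 (SE 0.07), a call lost without shMettl3 replicate 1 (-0.29) and with TPM (-0.17). Of this list Thbd (-2.14) and Pros1 (-1.19) alone kept their call without shMettl3 replicate 1, a fit with fewer calls over all genes too. Serpinc1, the antithrombin gene, had 0.13 (SE 0.36), which was -0.35 without Control replicate 1, and Proz, the gene of protein Z, had 0.63 (SE 0.45), neither of them called.

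Edn1 was the gene of the 7 that rose. Edn1 (Entrez gene 13614), the endothelin-1 precursor, had 205 and 194 counts in shMettl3 libraries, against 59 and 104 counts in Control libraries. In CPM this was 12.2 and 11.2 in shMettl3 libraries, against 3.55 and 6.27 in Control libraries. Both knockdown libraries were higher than both controls, but the controls differed 1.76-fold between themselves, against 1.09-fold for the knockdown libraries. The log2 fold change was 1.25 (SE 0.22, 95% interval 0.74 to 1.76, adjusted p = 0.00236 in edgeR), or 2.38-fold higher. Leaving out Control replicate 1 gave 0.88 and leaving out Control replicate 2 gave 1.71, and both fits called the gene. An antisense gene, Gm47118, overlaps an Edn1 exon on the opposite strand in GENCODE M21, and the library type does not mark strand, so reads of the 2 genes cannot be told apart.

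Of the other genes of the endothelin system few were counted. The list has 8 genes, Edn1 included, of which 2 were tested. These were Edn1 itself and Ece2, and both rose, beside 21.4% of all tested genes. Ece2, the gene of an endothelin-converting enzyme, had 50.8 and 53.5 CPM in shMettl3 libraries, against 34.4 and 39.8 CPM in Control libraries (log2 fold change 0.49, SE 0.09), from counts that were not all whole. Its TPM values were higher, 99.5 and 106 in shMettl3 libraries, against 63.5 and 71.1 in Control libraries. TPM lies above CPM where the counted transcripts are short. Whether the reads came from the transcript that encodes the converting enzyme was not tested. Ece1, the main converting enzyme, had 1 and 2 counts in shMettl3 libraries, against 5 and 6 counts in Control libraries. The receptor gene Ednrb had 1 and 0 counts in shMettl3 libraries, against 0 and 0 counts in Control libraries, and the symbols Ednra, Edn2 and Edn3 were not among the table's rows. The protease-activated receptor genes, some of which respond to thrombin, were at a similar floor: of the 4 in the list F2rl2 and F2rl3 had at most 2 counts in any library, and F2r and F2rl1 were not among the rows.

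**Figure D3:**
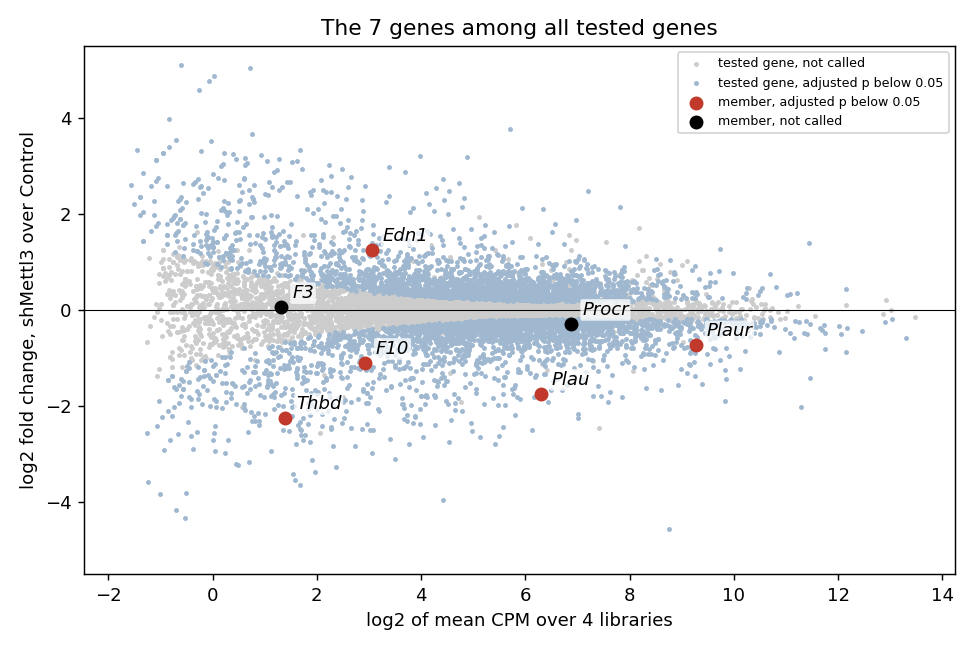
Log2 fold change, shMettl3 over Control, against the log2 of the mean CPM over 4 libraries for all tested genes, with the 7 genes labelled; red marks members with an adjusted p below 0.05 and black those not called. The 7 genes span the range from 0.833 CPM for Thbd to 803 CPM for Plaur in single libraries, and 7 tested genes beyond a log2 fold change of 5.5 in size lie outside the axis.

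Several of the genes are known from endothelium, liver or platelets, and the listed markers of those cells were scarce. Vwf, itself known from endothelium and platelets, was listed with the clotting factors and is not in the sums below. It had 18.1 and 21.1 CPM in shMettl3 libraries, against 13.5 and 11.4 CPM in Control libraries. Of 10 endothelial markers 6 were in the table, with a summed level of 1.61 to 2.08 CPM in shMettl3 libraries, against 0.542 to 0.783 CPM in Control libraries. Cdh5, the cadherin of endothelial junctions, had 9 and 8 counts in shMettl3 libraries, against 1 and 0 counts in Control libraries. Kdr, a receptor of VEGF, had 1 and 3 counts in shMettl3 libraries, against 2 and 3 counts in Control libraries. Egfl7, the 1 endothelial marker that was tested, was not called (19 and 12 counts in shMettl3 libraries, against 5 and 10 counts in Control libraries, adjusted p = 0.111 in edgeR). Emcn, Erg, Cldn5 and Sox17 were not among the rows. Of 8 hepatocyte markers 1 was in the table, with a sum of at most 0.0595 CPM in any library. Of 7 megakaryocyte and platelet markers 5 were in the table, with a sum of 0.595 to 0.690 CPM in shMettl3 libraries, against 1.38 to 1.51 CPM in Control libraries. Pf4, the 1 marker of these that was tested, had 4 and 6 counts in shMettl3 libraries, against 15 and 19 counts in Control libraries. It was called lower (log2 fold change -1.78, adjusted p = 0.00803 in edgeR), as were 22.3% of all tested genes. Of 8 fibroblast markers 4 were in the table, with 3.03 CPM in shMettl3 replicate 1 and 0.345 CPM in shMettl3 replicate 2, against 0 and 0.0603 CPM in Control libraries. The summed endothelial markers were higher in shMettl3 libraries, as Edn1 and Vwf were, and the part of such cells in those values was not tested. Thbd, another gene known from endothelium, was lower there.

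The 14 processing alternatives left the calls on 5 of the 7 genes in place wherever the gene was tested. Plau lay between -1.89 and -1.57, Plaur between -0.82 and -0.60, F10 between -1.32 and -0.73, Thbd between -2.40 and -0.79 and Edn1 between 0.88 and 1.71. The direction of these 5 did not turn with any scaling tried.

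**Figure D4:**
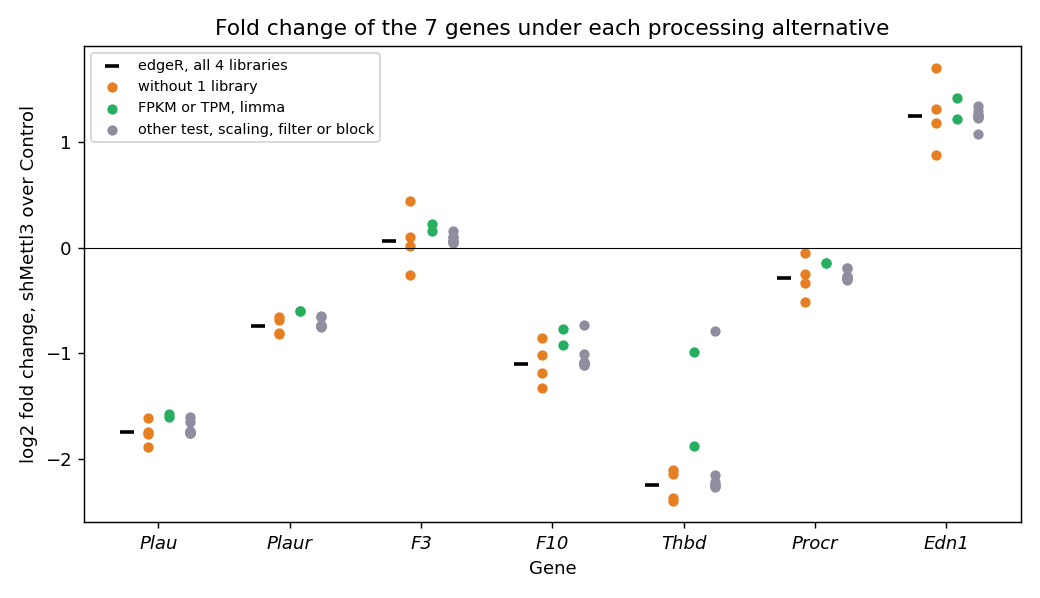
Log2 fold change, shMettl3 over Control, of the 7 genes in the edgeR fit of all 4 libraries (black bars) and under each processing alternative (points, coloured by kind). Plau, Plaur, F10 and Thbd stay below 0 and Edn1 above 0, while F3 lies on both sides of 0 and Procr runs from -0.51 to -0.05.

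The genes whose profile over the 4 libraries lay nearest to a called member were found by the Euclidean distance of log2 CPM centred on the mean, over 8311 or 8312 genes of at least 10 CPM on average. With 4 libraries this mostly ranks genes by fold change. Nearest to Plaur were Fxyd2, a regulator of the sodium pump (distance 0.058), and Cd53, a leukocyte tetraspanin (0.058). Nearest to Plau were Trip6, a LIM domain adaptor (0.11), and Dmpk, a protein kinase (0.13). Nearest to F10 were Surf2 (0.12) and Tgm2, a transglutaminase (0.13), and nearest to Thbd were Naaa, a lysosomal amidase (0.093), and Slc48a1, a heme transporter (0.11). Edn1 had no neighbour as close: Ubald2 and Trib3, a pseudokinase, lay at 0.23 each.

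Promoters are shown for a gene that fell (Plaur), a gene that was not called (F3) and the gene that rose (Edn1), because AP-1, which LPS activates, is a known regulator of genes of this kind. The 250 bases before the annotated start were read from a table of RefSeq promoters on GRCm38.p6, in which 5 of the 7 genes were matched. Plau and Thbd were not matched. The submitters' processing notes name another build, mm9, without a role. Capitals mark matches to the AP-1 motif TGANTCA, read on both strands.
Plaur, chr7:24462233-24462482, plus strand: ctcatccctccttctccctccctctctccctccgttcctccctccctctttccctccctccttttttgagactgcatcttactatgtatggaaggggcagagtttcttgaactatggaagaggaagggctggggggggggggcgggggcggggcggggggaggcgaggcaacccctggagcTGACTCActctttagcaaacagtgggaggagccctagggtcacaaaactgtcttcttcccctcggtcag
F3, chr3:121723287-121723536, plus strand: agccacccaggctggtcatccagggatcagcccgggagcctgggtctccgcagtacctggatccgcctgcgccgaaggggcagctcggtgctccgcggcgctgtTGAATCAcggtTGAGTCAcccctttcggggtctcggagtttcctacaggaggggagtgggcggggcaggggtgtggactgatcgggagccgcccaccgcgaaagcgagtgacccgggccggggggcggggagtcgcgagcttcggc
Edn1, chr13:42301226-42301475, plus strand: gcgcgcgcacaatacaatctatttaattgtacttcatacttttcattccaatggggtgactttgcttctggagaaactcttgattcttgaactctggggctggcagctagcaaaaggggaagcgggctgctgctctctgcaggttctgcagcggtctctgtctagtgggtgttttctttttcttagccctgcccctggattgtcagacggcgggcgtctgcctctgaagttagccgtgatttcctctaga

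Plaur held 1 match that began 69 bases before the start, and F3 held 2 that began 146 and 135 bases before it. Procr, whose promoter is not printed, held 1 match, 154 bases before the start, and Edn1 and F10 held none in this window. Of 32851 promoter windows of the same length 6.75% held the motif. Matches were thus found in a gene that fell and in both genes that were not called. Plau and Thbd, which also fell, could not be searched. The 10-letter NF-kB consensus, found in 7.25% of the windows, and GATAAG, found in 6.55%, had no match in these 5 windows, and GGGCGG, found in 32.7%, had 3 matches each in Plaur and F3. The motifs were searched on both strands and may overlap one another. Only exact matches to each pattern were counted. Sites that deviate from a pattern, NF-kB sites among them, were not looked for and may be present. A match describes letters in the window and is no evidence of binding.

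The transcripts of the 7 genes differed in motifs tied to RNA methylation and decay. METTL3 methylates adenosine in a short consensus of which GGACT, written as DNA, is the best known form, and methylation itself was not measured in these libraries. In the longest protein-coding GENCODE M21 transcript Plaur held 4 GGACT in 1506 bases, or 2.66 per 1000 bases, more than 96.5% of 10827 genes. The median over those genes was 1.05 per 1000 bases. Procr held 1.88, Thbd 1.34, F10 1.199 and F3 1.07 per 1000 bases, and Edn1 (0.935) and Plau (0.854) lay below the median. Of the genes above the median, Plaur, Thbd and F10 fell, and Procr and F3 were not called. Below the median, Plau fell and Edn1 rose. A relation of density to the changes was not tested. ATTTA, the core of AU-rich elements that mark unstable mRNAs, occurred 7 times in the 3′ UTR of F3 and 7 times in that of Thbd. F10 held none, Procr 1, Plau and Plaur 2 each and Edn1 3, beside a median of 2 over 10379 genes with a 3′ UTR of at least 100 bases. Per length F3 had 8.65 ATTTA per 1000 bases of 3′ UTR, more than 98.9% of these genes, beside a median of 1.37. On that scale Plaur had 4.03, Thbd 4.01, Edn1 2.70, Plau 2.14, Procr 1.70 and F10 0.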

How the data were processed

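RNA of 4 RAW264.7 libraries was converted to cDNA from the poly(A) tail and sequenced as single-end reads on a BGISEQ-500, per the labels' protocols. The authors deposited 1 table of 14435 genes. Its estimated counts are unnormalized, per the file headers and values, and were not whole for 12.5% of genes, though for the 7 members all were whole. The deposited FPKM values are scaled to gene length and library size, and the deposited TPM values sum to 1000000 per library within rounding, per the file headers. HISAT2 2.0.4, Bowtie2 2.2.5, RSEM 1.2.12 and mm9 are named in the submitters' processing notes without roles. Their annotation is not given in the sources used here. This table has 0 columns of other samples.

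Counts were rounded and tested with edgeR 4.0.16 in R 4.3.3 (robust quasi-likelihood fit on group, TMM, filterByExpr with a minimum count of 10 and total of 15), which kept 11035 genes. Benjamini-Hochberg adjustment ran over these genes, with calls below 0.05. CPM values use TMM factors. Standard errors are the size of the change divided by the root of F, and 95% intervals use the fit's degrees of freedom (2 residual, median prior 9.07). The biological coefficient of variation was 0.0678. DESeq2 1.42.0 and limma 3.58.1 served as alternatives, with pseudocounts of 1 and 0.1 for FPKM and TPM. Reads carry no molecular identifiers, so errors include PCR and cover counting and library spread alone.

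The members, the 6 pathway lists and the 5 marker lists were chosen with earlier results of these data known. Genes were named by this rule: the members, Mettl3 and Mettl4, up to 3 called genes in each direction of each pathway list, and the 2 nearest profiles of each called member. Other list genes and markers were named after their values were seen. 21 symbols stored as dates were restored by Entrez identifier. Exon overlaps, transcripts and promoters came from GRCm38 annotations (GENCODE M21 and RefSeq). 1 gene of the plasminogen activation list is not reported here and was left out of that list's counts.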

Additional observations from a re-analysis of the deposited data

How the results depend on the processing

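Of the 7 genes, Plau, Plaur, F10, Thbd and Edn1 kept their direction and their call under every alternative in which they were tested. F3 and Thbd could not be tested with a mean CPM of at least 5, which left 3 members lower. In the fits of all 4 libraries 3 to 5 members were called lower and 1 was called higher. Over all tested genes, 9279 to 14399 in number, these fits called 1509 to 2624 lower and 1605 to 3536 higher. The count of all genes called was 4826, and 3095 to 5324 with 1 library left out, the lowest without shMettl3 replicate 1; the cause was not tested. With 1 library left out, F3 ran from -0.26 to 0.44, Serpinc1 from -0.35 to 0.82 and Mettl4 from -0.11 to 0.0036. Mettl4 was 0.051 with library size alone, 0.14 with FPKM, 0.20 with TPM and 0.22 with a pseudocount of 0.1. Vkorc1l1 was 0.0027 with library size alone, 0.047 with TPM and 0.049 with a pseudocount of 0.1. None of these reversed values was called. Library size, FPKM and TPM moved the median over all tested genes to 0.11, 0.08 and 0.14, against 0.01 with TMM. The labels give replicate numbers 1 and 2 in both groups but do not say that a number marks a shared batch. Deviations of same-numbered libraries correlated at 0.16 across genes, which are not independent replicates. With the replicate number as a block, 5116 genes were called, and Procr was called lower (-0.27, adjusted p = 0.0292 in edgeR), which made 5 members lower; the block changed no other member's call. Low counts limit what can be resolved for F3, Tfpi, Proz and Serpinc1, whose standard errors lay between 0.27 and 0.47.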
